A study of Mus musculus with 5 samples.

Results

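The Ly49 receptors of the mouse are encoded by the Klra genes, and the 10 genes Klra1 to Klra10 were examined here in natural killer T (NKT) cells of the thymus. Members were chosen by symbol: every probe, other than control probes, whose RefSeq transcript belongs to one of these genes was taken. That gave 14 of the 55681 probes of the array and 9 of the 10 genes, since no probe was matched to Klra3. The study set wild-type mice against mice deficient in interleukin-15 (IL15ko), both on the C57BL/6 background, with 3 wild-type and 2 IL15ko samples. Each sample was pooled from 10 thymi, enriched for T cells on magnetic columns and sorted for cells that carry CD3e and bind a CD1d tetramer, and its RNA was hybridised to 1 Agilent array with a single dye. Age and sex of the mice are not described here, and nothing states whether replicates of a group were separate pools of animals; the p-values therefore cover the spread among these 5 arrays, part or all of which may be technical.

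Ly49 receptors are lectin-like surface proteins best known from natural killer (NK) cells, where they read MHC class I molecules on neighbouring cells. Most members are inhibitory: a tyrosine motif in the cytoplasmic tail recruits phosphatases such as SHP-1 (Ptpn6) once the receptor has bound its ligand. A few are activating, have no such motif and signal through the adaptor DAP12 (Tyrobp). NKT cells carry a T cell receptor that binds lipids held by CD1d, and as they mature in the thymus many of them take up receptors otherwise typical of NK cells. Interleukin-15 is a cytokine on which NK cells and the late steps of NKT cell maturation depend.

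The genes lie side by side, in the order Klra17, Klra5, Klra6, Klra4, Klra8, Klra9, Klra7, Klra10, Klra3 and Klra1 with pseudogenes between them and Klra2 further off. Several carry a nearly shared stretch ahead of their first exon, or across its start in Klra9 and Klra3. It is shown because the members were read out together and because it shows how alike the copies are. The stretches below are the 60 bases of each 300-base RefSeq promoter window (mouse build GRCm38.p6, minus strand, written 5′ to 3′) that best match the one of Klra6. Capitals mark the letters ATTGCAAT, a C/EBP-type motif. They also mark the TCF/LEF-type letters CTTTGAT in Klra6 and Klra7. In Klra9 they mark another TCF/LEF-type motif, CTTTGTT. The capitals AGATAA in Klra5 are GATA-type letters. All were searched on both strands. These motifs were picked after the sequences had been seen.
Klra6, chr6:130027028-130027087: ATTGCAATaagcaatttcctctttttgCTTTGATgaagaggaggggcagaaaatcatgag
Klra5, chr6:129913269-129913328: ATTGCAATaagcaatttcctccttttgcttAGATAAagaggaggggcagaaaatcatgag
Klra9, chr6:130193105-130193164: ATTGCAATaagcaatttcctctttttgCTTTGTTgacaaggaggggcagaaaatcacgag
Klra7, chr6:130233366-130233425: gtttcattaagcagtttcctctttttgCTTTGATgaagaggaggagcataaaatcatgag
Klra4, chr6:130067305-130067364: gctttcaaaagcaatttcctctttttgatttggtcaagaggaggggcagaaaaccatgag
Klra8, chr6:130129933-130129992: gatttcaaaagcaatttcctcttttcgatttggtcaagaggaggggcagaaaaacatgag

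The stretch of Klra5 shares 95% of its bases with that of Klra6, Klra9 shares 93.3%, Klra7 90.0%, Klra4 83.3% and Klra8 81.7%. Klra3 (96.7%) and Klra2 (81.7%) carry it too. The best matches in the windows of Klra10 (48.3%) and Klra1 (41.7%) lay within the range of other genes, as did another window of Klra7 (41.7%). The highest identity in other genes was 58.3% over 32531 promoter windows. Klra17 (63.3%) lay just above that range. The 8 letters ATTGCAAT stood in the windows of 4 of 11 Klra genes (Klra3, Klra5, Klra6 and Klra9) and in 0.243% of the 32544 promoter windows of all genes. The TCF/LEF-type letters stood in 3 of the 11 (Klra6, Klra7 and Klra9) and in 9.33% of all windows, and AGATAA stood in 2 (Klra5 and Klra7) and in 11.2% of all windows. Of further motifs searched, the STAT-type TTCNNNGAA stood in 3 of the 11 (Klra2, Klra7 and Klra10) and 8.33% of all windows, the T-box-type GGTGTGA in 1 (Klra1) and 3.95%, and the RUNX-type TGTGGT in 1 (Klra1) and 16.7%, and none of these lay in a stretch shown above. A match of letters describes the sequence and is not evidence that a factor binds there. The genome build named in the array files is an older one, so these positions were not carried over to the probes.

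All 5 arrays sat on the same slide and shared a scan, and none had a saturated spot. Between 33.9% and 49.6% of the probes were well above background, with IL15ko 2 the dimmest array. The pair wild-type 1 and wild-type 2 was closer (robust SD of the log2 differences 0.155) than the other wild-type pairs (0.364 and 0.393) or the IL15ko pair (0.386). Of 14 markers of T and NKT cells, 14 were well above background on every array, among them Cd3e, with a log2 difference of -0.05 between the genotypes (limma, adjusted p = 0.813), and the NKT cell transcription factor gene Zbtb16.

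In IL15ko NKT cells every Ly49 gene that could be measured was lower than in wild-type NKT cells. Of the 10 members, 8 were tested, and 8 of 8 fell (limma with Benjamini-Hochberg adjustment over 11997 genes, threshold 0.05), against 3.58% of all genes tested. None of the 8 rose, against 3.74% of all genes, and 0 were higher at an unadjusted p under 0.05. Both IL15ko arrays lay below all 3 wild-type arrays in 8 of 8 members, which held for 22.1% of all genes. The falls ran from 2.02-fold in Klra1 to 38.3-fold in Klra5, with a median log2 difference of -2.26 over the members and 0.01 over all genes. All 8 tested members were well above background on all 5 arrays, so none passed the filter through the wild-type group alone. Which transcripts bind each probe was not tested, so the 8 members may not be 8 separate readings. In a bulk sample, fewer cells that carry a receptor and less RNA per cell cannot be told apart. The direction was the same in 21 alternative ways of processing, but the calls rest on few arrays: 0 of 8 members were called once wild-type 1 was left out (8 of 8 at an unadjusted p under 0.05), 5 when wild-type 2 was, 8 when wild-type 3 was, 7 when IL15ko 1 was and 6 when IL15ko 2 was. With a normexp background correction and the main scaling 0 of 8 were called as well. Again 8 of 8 had an unadjusted p under 0.05. With normexp and quantile normalization 8 of 8 were called. With dim probes left in, which adds Klra2, 0 of 9 were called and 8 of 9 had an unadjusted p under 0.05.

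The levels below are log2 of the processed signal minus the array's 75th percentile over well-detected probes, so a level of 0 lies at that percentile, and levels of different genes come from different probes and are not set against each other. Klra5 encodes Ly49E, an inhibitory receptor known from fetal NK cells and from T cells. It had the largest fall of the family and ranked 3 by size of fall among all genes tested. Its processed signal was 1454, 1131 and 2605 on the wild-type arrays and 32.0 and 21.2 on the IL15ko arrays. Scaled, that gave levels of 0.35, 0.35 and 0.41 in wild-type 1 to 3 and -5.40 and -4.38 in IL15ko 1 and 2. The wild-type arrays were within 0.1 of each other, whereas the IL15ko arrays lay far below and apart from each other. The fall was 38.3-fold (95% confidence interval 22.2 to 66.2, log2 difference -5.26, SE 0.31, limma adjusted p = 0.00602).

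A further probe of Klra5 is spotted 10 times on each array, which shows how well a signal of this size was measured. Its spots had median signals of 867, 652 and 1410 on the wild-type arrays and of 16.4 and 13.4 on the IL15ko arrays. The SD of log2 signals between spots was 0.028, 0.039 and 0.051 in wild-type 1 to 3 and 0.39 and 0.55 in IL15ko 1 and 2. On the IL15ko arrays only 5 of 10 and 1 of 10 spots were well above background, and taken as a whole the probe was not well above background there. For this probe, with the processed signals as used here, the fall was at least 36.6-fold (limma over all probes, adjusted p = 0.0146), with mean levels of -0.44 in wild-type and -5.77 in IL15ko. Under other treatments of the background the log2 difference of the brighter Klra5 probe was smaller, from -3.67 after normexp to -4.73 in the authors' deposited table. The bound of 36.6-fold sets the wild-type mean against, for each IL15ko array, the higher of the probe's own signal and the lowest signal called well above background. Here and below, a p-value printed beside such a bound tests the difference without the bound.

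**Figure D1:**
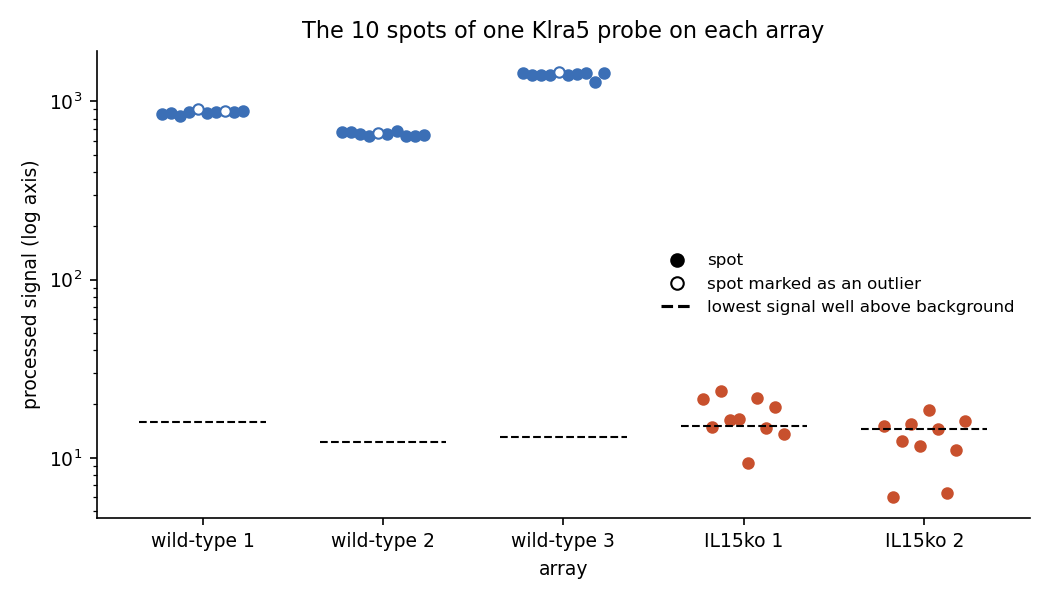
Processed signal (vertical log axis) of every spot of the Klra5 probe that is spotted 10 times on each of the 5 arrays. Spots of a wild-type array lie close together around medians of 867, 652 and 1410, while IL15ko spots scatter around 16.4 and 13.4, near the lowest signal called well above background.

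Klra6 encodes Ly49F, another inhibitory receptor, and fell 7.11-fold (95% confidence interval 4.90 to 10.3, log2 difference -2.83, SE 0.21, limma adjusted p = 0.00823). Its levels were -1.05, -1.22 and -0.92 on the wild-type arrays and -4.17 and -3.62 on the IL15ko arrays. The 2 genotypes were far apart, and IL15ko 1 was the lower of its pair, as in Klra5.

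Klra9, which encodes the inhibitory receptor Ly49I, had levels of 2.19, 2.17 and 2.28 in wild-type 1 to 3 and of -0.33 and 0.19 in IL15ko 1 and 2. The fall was 4.86-fold (95% confidence interval 3.49 to 6.77, log2 difference -2.28, SE 0.19, limma adjusted p = 0.00895). Klra10, the gene of Ly49J, had levels of -1.94, -2.06 and -1.69 in wild-type and -4.33 and -3.95 in IL15ko. Its log2 difference of -2.24 (SE 0.19, limma adjusted p = 0.00895) was close to that of Klra9, and it fell 4.74-fold. In both genes the groups were separated by over 1 log2 unit.

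Klra7 encodes Ly49G, an inhibitory receptor, and Klra1 encodes Ly49A, the first Ly49 receptor described and also inhibitory. Both fell, by less than the members above. The brightest probe of Klra7 had levels of 1.92, 1.92 and 2.14 in wild-type and 0.46 and 0.54 in IL15ko, a fall of 2.82-fold (95% confidence interval 2.21 to 3.59, log2 difference -1.49, limma adjusted p = 0.0105). Klra1 had levels of 1.56, 1.38 and 1.23 in wild-type and 0.35 and 0.41 in IL15ko, a fall of 2.02-fold (95% confidence interval 1.56 to 2.62, log2 difference -1.02, limma adjusted p = 0.0245). In both genes the IL15ko arrays stood within 0.1 of each other. Klra1 was the least secure call: it was lost in 10 of 21 alternatives, and in the fit over all probes its adjusted p was 0.0544.

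The activating members fell as well. Klra8 encodes Ly49H, which recognises a protein of mouse cytomegalovirus on infected cells, and Klra4 encodes Ly49D. Klra8 had levels of 3.46, 3.41 and 3.56 in wild-type 1 to 3 and of 0.71 and 1.25 in IL15ko 1 and 2, a fall of 5.62-fold (95% confidence interval 3.98 to 7.92, log2 difference -2.49, SE 0.20, limma adjusted p = 0.00875). Klra4 had levels of 1.25, 1.25 and 1.31 in wild-type and of -0.12 and -0.06 in IL15ko, a fall of 2.57-fold (95% confidence interval 2.08 to 3.16, log2 difference -1.36, SE 0.12, limma adjusted p = 0.00949). Both were separated by genotype, and the falls of the activating pair lay inside the range of the inhibitory members.

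Klra2, the gene of Ly49B, a receptor known from myeloid cells, had a single probe, and no array read it well above background. Its processed signals of 11.1, 7.83 and 7.30 in wild-type and 3.78 and 3.61 in IL15ko give no fold. No value can be given for Klra3, the gene of Ly49C.

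The members differed in how far they fell, and the order was Klra5, Klra6, Klra8, Klra9, Klra10, Klra7, Klra4 and Klra1. Neighbours in this order were compared through the gap between their levels within each array. The gap between Klra5 and Klra6 changed by -2.43 in IL15ko arrays, against a range of 0.24 over the wild-type arrays. The changes between Klra6 and Klra8 (-0.34 against a range of 0.15), Klra8 and Klra9 (-0.21 against 0.04) and Klra10 and Klra7 (-0.75 against 0.15) also passed the wild-type range. For Klra9 and Klra10 (-0.04 against 0.25), Klra7 and Klra4 (-0.14 against 0.16) and Klra4 and Klra1 (-0.34 against 0.38) the change was smaller than the width of that range. Of these, only the gaps of Klra9 and Klra10 overlapped between the genotypes. The gaps did not overlap in 27 of the 28 pairs of members. These pairs reuse the same genes and arrays and are not separate readings. The share over pairs of other genes was not computed, so the count is a description only. With 3 against 2 arrays an exact two-sided permutation test cannot go below 0.1, and over the 28 pairs of members the smallest adjusted p was 0.122. The places of Klra6, Klra8, Klra9 and Klra10 depend on the background correction. After normexp with the main scaling the order began Klra5, Klra8, Klra9, Klra6, and Klra10 came seventh. The log2 differences there were -3.67 in Klra5, -1.89 in Klra6 and -1.21 in Klra10. With the mean of all probes of a gene, dim ones included, Klra8 had a log2 difference of -1.62 and came after Klra7.

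Genes of the cluster with several probes allow a check between probes. Of the 14 member probes, 12 were tested over 26485 probes and 11 of them fell (limma with Benjamini-Hochberg adjustment), against 1.53% of all probes tested. This count was 0 without wild-type 1, wild-type 2 or wild-type 3 and 2 without either IL15ko array, while 12 member probes had an unadjusted p under 0.05 in each of these fits. A Klra5 probe and a Klra7 probe among the 11 were well above background on the wild-type arrays only. They passed the filter through that group alone and add no separate weight to the count. With signals floored at the lowest one well above background, 10 member probes were called. The main Klra8 probes gave log2 differences of -2.49 (adjusted p = 0.0229) and -2.40 (adjusted p = 0.0274), and the remaining Klra8 probe was dim on all 5 arrays. The Klra5 probes gave -5.26 and -5.33. For both genes the ranges of the gap between probes overlapped between the genotypes.

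Klra7 was the exception among the members. Its brightest probe gave a log2 difference of -1.49 (limma over all probes, adjusted p = 0.0274), and a second one gave -2.04 (adjusted p = 0.0229). The gap between these probes ran from -1.84 to -1.70 in wild-type and from -2.35 to -2.26 in IL15ko, so the genotypes did not overlap. A dimmer probe of the same gene was not well above background in IL15ko, with mean levels of -4.52 in wild-type and -6.62 in IL15ko. Its log2 difference was -2.11 (limma over all probes, adjusted p = 0.0447), and its bound was a fall of at least 2.15-fold. The size of the Klra7 fall therefore depends on the probe.

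**Figure D2:**
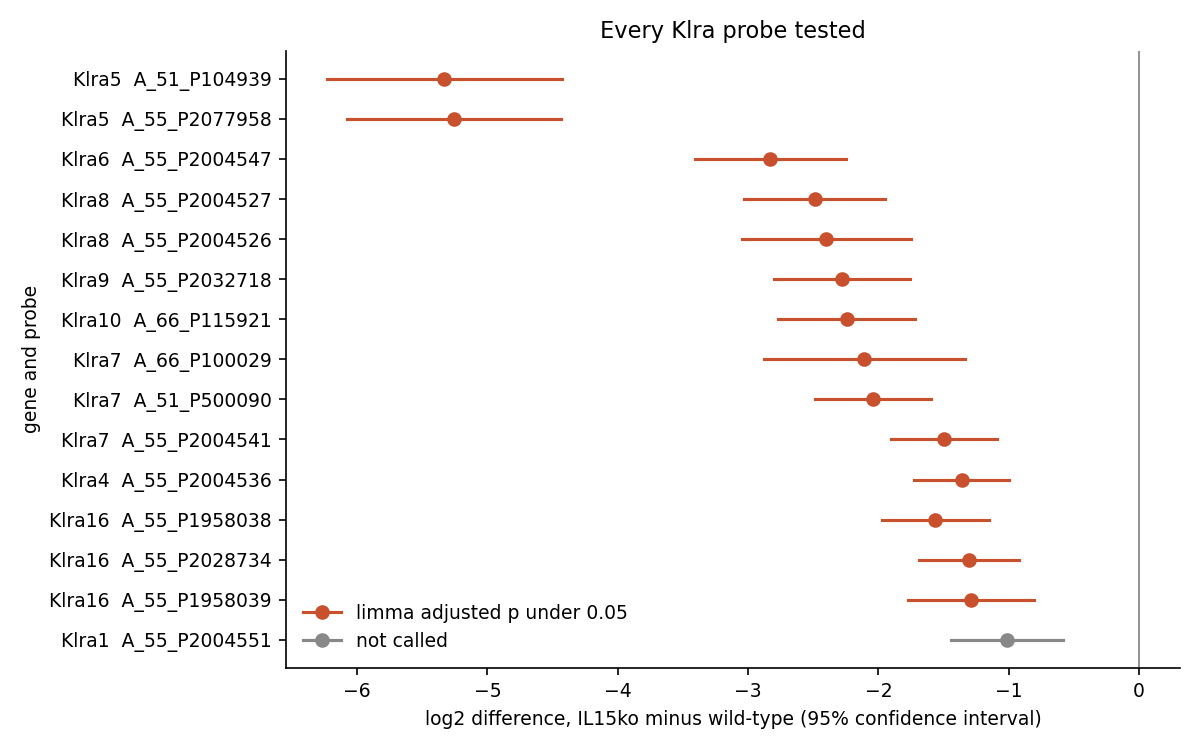
Log2 difference between IL15ko and wild-type (horizontal axis) for each tested Klra probe, with 95% confidence intervals from limma over all probes. Every probe lies below 0, the Klra5 probes lie farthest out at -5.26 and -5.33, and those of Klra7 spread from -1.49 to -2.11.

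Klra16 encodes Ly49P, a receptor known from other mouse strains, and it has no place in the reference gene order given above. Its probes still gave clear signals here: all 3 Klra16 probes were well above background on all 5 arrays of these C57BL/6 cells, with the brightest at levels of 3.67, 3.59 and 3.49 in wild-type and 2.32 and 2.24 in IL15ko. They gave log2 differences of -1.30, -1.56 and -1.29 (limma over all probes, adjusted p = 0.0316, 0.0269 and 0.0453). The files hold no probe sequences, so which transcripts bind each Klra probe was not tested, and single members are uncertain where copies are nearly identical. The 2 probes of Klra17, the gene of Ly49Q, were dim on all 5 arrays.

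The 2 IL15ko arrays did not fall alike for all members. IL15ko 2 was above IL15ko 1 by 1.02 in Klra5, 0.55 in Klra6, 0.54 in Klra8, 0.52 in Klra9 and 0.38 in Klra10. For Klra7, Klra4 and Klra1 it was above by 0.08, 0.07 and 0.07. The members that fell the most were thus those that split the IL15ko arrays. The same split was present over all called genes with falls of this size, members included. Over the 97 called genes at least 4-fold lower, IL15ko 2 was above IL15ko 1 by a median of 0.54. The median was 0.01 over the 332 called genes with smaller falls and -0.04 over all genes. Whether the lower detection rate of IL15ko 2 has a part in this was not tested.

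Genes that work beside the Ly49 receptors were read from lists chosen with earlier results of these data known, and their calls rest on few arrays too: over all genes, 8 were called lower and 1 higher without wild-type 1. Among other lectin-like receptors of the same gene complex, 16 of 21 were tested, and 12 fell, 0 rose and 4 were not called. At an unadjusted p under 0.05 (limma), 13 were lower and 1 higher. The median log2 difference was -1.96, and over all genes tested 3.58% fell and 3.74% rose. Klrk1, the gene of the activating receptor NKG2D, was at least 12.8-fold lower (limma adjusted p = 0.00316), and Klrc1, the gene of NKG2A, was at least 9.48-fold lower (limma adjusted p = 0.00602). Neither was well above background in IL15ko, where mean levels were -6.27 and -7.21 against -1.97 and -2.46 in wild-type. The same held for Klri2 and Klrh1, also counted as falls, which were at least 16.3-fold and 1.40-fold lower. All of these passed the filter through the wild-type arrays alone, and the median takes their values without such a bound. Klre1 fell 31.7-fold (limma adjusted p = 0.00895), and Klrd1, the gene of CD94, the partner chain of NKG2A, fell 5.88-fold (limma adjusted p = 0.00934).

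In the signalling list 18 of 18 genes were tested, and 3 fell, 0 rose and 15 were not called, with a median log2 difference of -0.25. At an unadjusted p under 0.05 (limma), 4 were lower and 1 higher. Over all genes tested 3.58% fell and 3.74% rose. The 3 that fell encode adaptor chains that sit in the membrane beside receptors, and Cd247, which encodes another such chain, had a log2 difference of -0.49 (limma adjusted p = 0.595). Fcer1g, the common gamma chain of Fc receptors, fell 5.63-fold (limma adjusted p = 0.00944). Tyrobp, the DAP12 gene, was at least 9.68-fold lower (limma adjusted p = 0.0190) and was not well above background in IL15ko, with mean levels of -2.34 in wild-type and -5.67 in IL15ko. It is counted among the 3 falls but passed the filter through the wild-type arrays alone. Hcst, the DAP10 gene, fell 1.74-fold (limma adjusted p = 0.0272). The phosphatase genes on which inhibitory members act had log2 differences near 0: 0.02 for Ptpn6 (SHP-1), -0.04 for Ptpn11 (SHP-2) and -0.19 for Inpp5d (SHIP), with limma adjusted p-values of 0.967, 0.844 and 0.479. The T cell kinase gene Zap70 had a log2 difference of 0.02 (limma adjusted p = 0.939).

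Of 21 genes for MHC class I ligands and their assembly, 18 were tested, and 4 fell, 0 rose and 14 were not called. The median log2 difference was -0.67. At an unadjusted p under 0.05 (limma), 10 were lower and 3 higher. The shares over all genes tested were 3.58% lower and 3.74% higher. H2-K1, which encodes a classical class I heavy chain, fell 2.30-fold (limma adjusted p = 0.0166). H2-Q6 fell 1.98-fold, H2-Q7 fell 1.78-fold, and Nlrc5, a transactivator of class I genes, fell 1.60-fold (limma adjusted p = 0.0352, 0.0407 and 0.0372). H2-D1 had a log2 difference of -0.74 (limma adjusted p = 0.0651), and B2m, the light chain, one of 0.17 (limma adjusted p = 0.596). Class I genes are also close copies of each other, with the same limit on single probes.

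Among 26 regulators of Ly49 expression and NK-type maturation, 23 were tested, and 2 fell, 2 rose and 19 were not called. The median log2 difference was 0.14. At an unadjusted p under 0.05 (limma), 6 were lower and 7 higher. Of all genes tested, 3.58% fell and 3.74% rose. Tbx21, the gene of T-bet, fell 3.40-fold (limma adjusted p = 0.00895), and Id2 fell 1.74-fold (limma adjusted p = 0.0315). Tcf7, the gene of TCF-1, a factor known to act on Ly49 genes, rose 2.14-fold (limma adjusted p = 0.0229), and Tox rose 1.99-fold (limma adjusted p = 0.0440). Runx3 and Il2rb, the gene of the receptor chain shared by interleukin-2 and interleukin-15, had log2 differences of -0.80 and -1.56 and missed the threshold (limma adjusted p = 0.0550 for both).

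**Figure D3:**
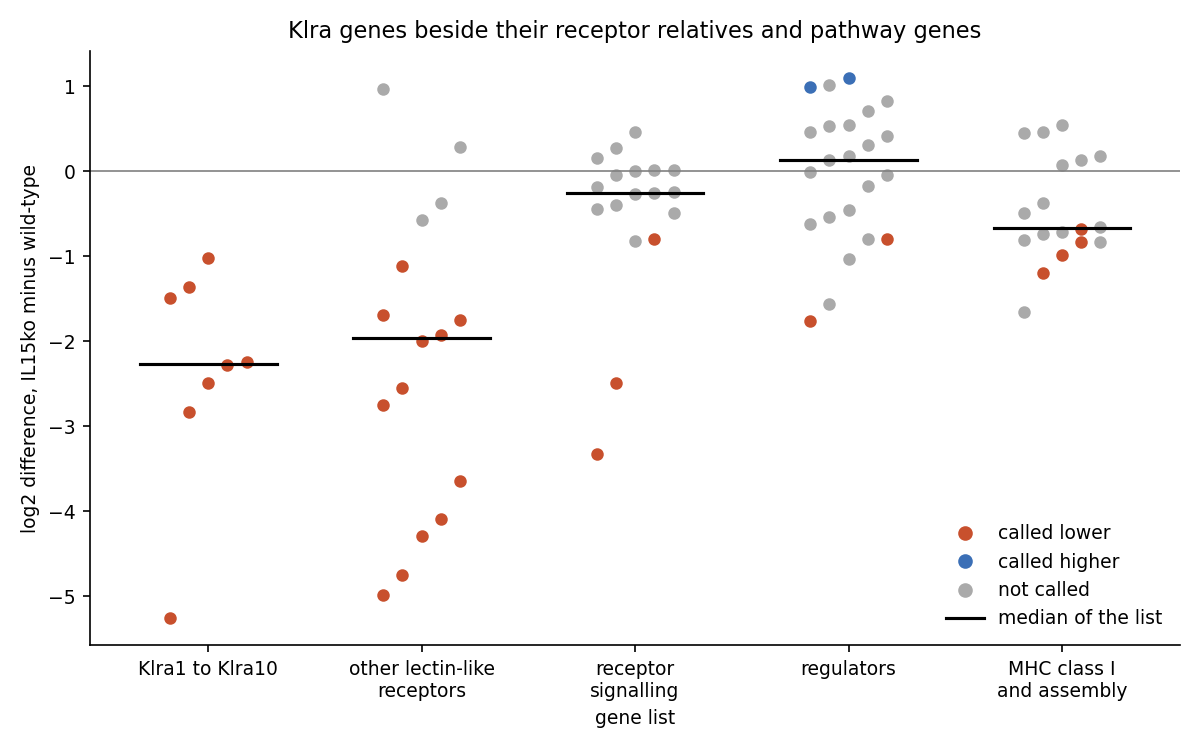
Log2 difference between IL15ko and wild-type (vertical axis) of every tested gene in the Ly49 family and in the lists of lectin-like receptors, signalling genes, MHC class I genes and regulators, with 1 point per gene. All Ly49 points lie below 0 around a median of -2.26, next to medians of -1.96, -0.25, -0.67 and 0.14 in the lists.

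Markers of other cell types were read on the same arrays, where 3.58% of all genes tested were called lower and 3.74% higher. Of 7 NK cell markers 5 were tested and 3 fell (Klrb1c, Klre1 and Nkg7), with 4 lower and 0 higher at an unadjusted p under 0.05 (limma). In the same list Ncr1, the gene of the NK cell receptor NKp46, was dim on all 5 arrays. The summed scaled signal of that list, in units of each array's 75th percentile, ran from 27.7 to 29.1 in wild-type and from 5.17 to 8.85 in IL15ko. Its part in the Ly49 falls was not tested, and Klre1 and Klrb1c are themselves receptors of the same gene complex. In the T and NKT cell list 0 of 14 fell and 3 rose (Zbtb16, Slamf6 and Cd5), and 2 were lower and 7 higher at an unadjusted p under 0.05 (limma). The summed signals of this list were 100.1 to 107.2 in wild-type and 102 to 104 in IL15ko. Cd79a, Ms4a1 and Pax5 of the 7 B cell markers, Lyz2, Itgax, Flt3 and Adgre1 of the 12 markers of myeloid and plasmacytoid dendritic cells, and Rag1, Rag2, Ptcra, Cd8a and Cd8b1 of the 9 markers of double-positive thymocytes were likewise dim on all 5 arrays, meaning not well above background. Summed signals ran from 0.144 to 0.250 in wild-type and from 0.178 to 0.275 in IL15ko for B cells, from 38.0 to 57.1 and from 37.9 to 54.5 for myeloid and plasmacytoid dendritic cells, and from 1.51 to 2.14 and from 3.47 to 3.81 for double-positive thymocytes. Of the 9 markers of double-positive thymocytes 3 were tested, and 0 fell and 1 rose (0 lower and 2 higher at an unadjusted p under 0.05, limma). That list shares a gene with the T and NKT cell list, and what its higher sum in IL15ko reflects was not tested. None of the B cell, myeloid or dendritic cell markers was called by limma, with Cd79b higher and Csf1r lower at an unadjusted p under 0.05.

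The genes whose pattern over the 5 arrays was most like the mean of the 8 measured members were Neurl3, Cdc42ep1, Fcer1g, Calhm6, Klrd1 and Adssl1. Likeness was the Euclidean distance between log2 profiles, each centred on its own mean, over 11988 other genes. The distances were 0.234, 0.247, 0.259, 0.275, 0.285 and 0.290. Of the members themselves, Klra9 (0.131), Klra8 (0.163) and Klra10 (0.219) lay closer to the mean, and Klra5 (3.19), Klra1 (1.53), Klra4 (1.14), Klra7 (0.992) and Klra6 (0.525) lay farther off. The list is a description over 5 arrays and carries no test.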

How the data were processed

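Spot intensities, on a linear scale, were deposited as written by Agilent Feature Extraction (version 10.7.1.1 per the file headers), which subtracts background within an array and leaves arrays unscaled. The authors' deposited value table holds intensities too, equal for bright spots to the median signal less its local background and shifted by an unexplained constant on each array. The submitters' processing notes also name limma, without settings. Probes were named through RefSeq accessions: 26425 of 55681 had 1 symbol, 0 several and 29256 none. Values were log2 processed signals minus each array's 75th percentile, taken from the 18527 probes detected well above background in every sample, without control and outlier spots. Each gene had its brightest probe, tested if well above background on at least 2 arrays. Groups were compared with limma 3.58.1 in R 4.3.3 (lmFit, eBayes, 3 residual degrees of freedom), tested on simulated data, with Benjamini-Hochberg adjustment at 0.05 and intervals at 95%. The number of arrays limits the precision. The text names every Klra gene with a probe, up to 4 genes of each list by smallest p, any gene needed to describe a count, and the 6 genes nearest in profile. The members and lists were chosen with earlier results of these data known. Results of 2 marker genes are not reported here.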

Additional observations from a re-analysis of the deposited data

How the results depend on the processing

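All 8 member differences stayed negative in the 21 alternatives run, and 131 of 168 member values stayed below the threshold. The main analysis called 8 members, 11 member probes, 429 genes lower and 449 higher. Without a filter on dim probes, it called 0 members, 0 member probes, 3 genes lower and 0 higher (1069 and 1675 at an unadjusted p under 0.05, limma). With normexp (offset 50) and the main scaling it called 0 members, 0 member probes, 1 gene lower and 0 higher (673 and 1286 unadjusted). Without background correction 6 members, 0 member probes, 80 genes lower and 76 higher were called. Normexp with quantile normalization called 8 members, 11 member probes, 615 genes lower and 814 higher. With a trended, robust prior 688 genes were lower and 809 higher. With wild-type 1 and 2 averaged, 5 members, 0 member probes, 53 genes lower and 26 higher were called. In each of these fits 8 members and 11 or 12 member probes had an unadjusted p under 0.05, of 8 members tested, or of 9 without the filter, which adds Klra2. Leaving out 1 array gave 0 to 8 members, 0 to 2 member probes, 8 to 395 genes lower and 1 to 356 higher, the fewest without wild-type 1. The cause of these losses was not tested.

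Replicate numbers are shared between the groups, but deviations of same-numbered arrays correlated at -0.11 and 0.20, so the numbers were not shown to pair the samples. With the replicate block 7 members were called (Klra1 had an adjusted p of 0.0591), with 0 member probes, 230 genes lower and 130 higher.

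The signals used for normexp and for the fit without background correction were spot medians, chosen after seeing the data in place of the spot means listed for 3 alternatives, which were not run. Signal over background limits Klra2, and the IL15ko values of 1 Klra5 and 1 Klra7 probe, to bounds or to no fold.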
